A study of Mus musculus with 77 samples.

Results

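The expression of 32 genes of glycolysis and pyruvate handling was analyzed in the retina of mice with oxygen-induced retinopathy (OIR) and of control mice. The genes were chosen by name, from the glucose transporters to the kinases of pyruvate dehydrogenase, and all 32 were measured, by 49 of the 55681 probes of the array. These genes and the other lists used below were chosen with earlier results of these data known. Their counts beside all genes are therefore descriptions only. Probes with a gene symbol stood for 21154 genes. Each gene was represented by the brightest of its probes, and 22 of the 32 genes had 1 probe only.

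The mice were of the C57BL/6 strain. Whole litters were placed on postnatal day 7 (P7) into chambers with 75% oxygen (OIR mice) or 21% oxygen (control mice), stayed there until P12 and lived in room air afterwards. Retinas were taken on P12 from 13 OIR and 12 control mice, on P17 from 13 OIR and 12 control mice and on P28 from 13 OIR and 14 control mice. Both retinas of a mouse were pooled on 1 array of 2 colors, next to universal mouse reference RNA. Littermates shared their treatment, and the litter of a mouse is not given in the sources used here, so that the standard errors and *p*-values treat every mouse as independent and ignore litter.

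Glycolysis splits glucose into pyruvate. Pyruvate is then either reduced to lactate and exported or carried into mitochondria and oxidized. The retina is known for making lactate from glucose even when oxygen is present, mostly in its photoreceptors, and many glycolytic genes are known targets of the hypoxia-inducible factors. In the OIR model, the high oxygen stops and removes retinal vessels, so that the return to room air leaves the inner retina poorly perfused until new vessels have grown.

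Values are offset ratios, the log2 of retina over reference signal, and differences between OIR and control mice are differences of mean offset ratios. The labels assign Cy5 to the retina. The rod genes *Sag*, *Gnat1* and *Pde6b* were however brighter in Cy3 than in Cy5 on each of the 77 arrays, by at least 2.05 on the log2 scale. Cy3 was therefore taken as the retina, which is opposite to the labels, and every sign given here rests on that. Differential expression was called where the limma *p*, adjusted over all 55681 probes, was below 0.05. Between 13765 and 34306 probes of an array were well above background, with group medians of 20050 to 21099.5 on P12 and P17 and of 32169.5 and 32885 on P28.

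On P17, 5 days after the return to room air, 5 of the 32 genes were overexpressed and 3 were underexpressed in the OIR retinas. The lactate exporter gene *Slc16a3* and the phosphofructokinase subunit gene *Pfkp* showed the largest differences, with 2.33-fold and 2.26-fold higher expression. The other overexpressed genes were *Pfkl*, *Pfkfb3* and *Gpi1*, which with *Pfkp* act on the sugar phosphates of upper glycolysis. The underexpressed genes were *Ldhb*, *Mpc1* and *Mpc2*, which encode a lactate dehydrogenase subunit and both subunits of the mitochondrial pyruvate carrier. For comparison, 2.31% of all genes, each also taken by its brightest probe, were called on P17, 1.65% as higher and 0.652% as lower in OIR. At an unadjusted *p* below 0.05, 13 of the 32 genes and 15.9% of all genes passed. The median difference was 0.14 over the 32 genes and −0.0025 over all genes. Of the 32 differences 24 were positive, compared with 10166 of the 21154 over all genes.

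On P12, at the end of the high oxygen, no gene of the pathway was called (limma), where 0.0567% of all genes were. At an unadjusted *p* below 0.05, 2 of the 32 genes passed, *Pfkp* with −0.35 and *Slc16a3* with −0.33, compared with 3.24% of all genes. On P28 no gene was called either, where 0.142% of all genes were, and 5 of 32 passed at an unadjusted *p* below 0.05, compared with 8.47% of all genes. The median difference of the 32 genes was −0.07 on P12 and −0.10 on P28. Only 3 slides held both groups of P28, and within them several signs differed from those over all mice of P28. *Gapdh*, *Eno1*, *Gpi1* and *Ldha* were higher in OIR on 3 of 3 slides, although their differences over all mice of P28 were −0.29, −0.29, −0.12 and −0.04. The OIR and control mice of each of the 32 genes overlapped on both days, as they did for all but 0.00945% of all genes on P12 and all but 0.0142% on P28.

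**Figure D1:**
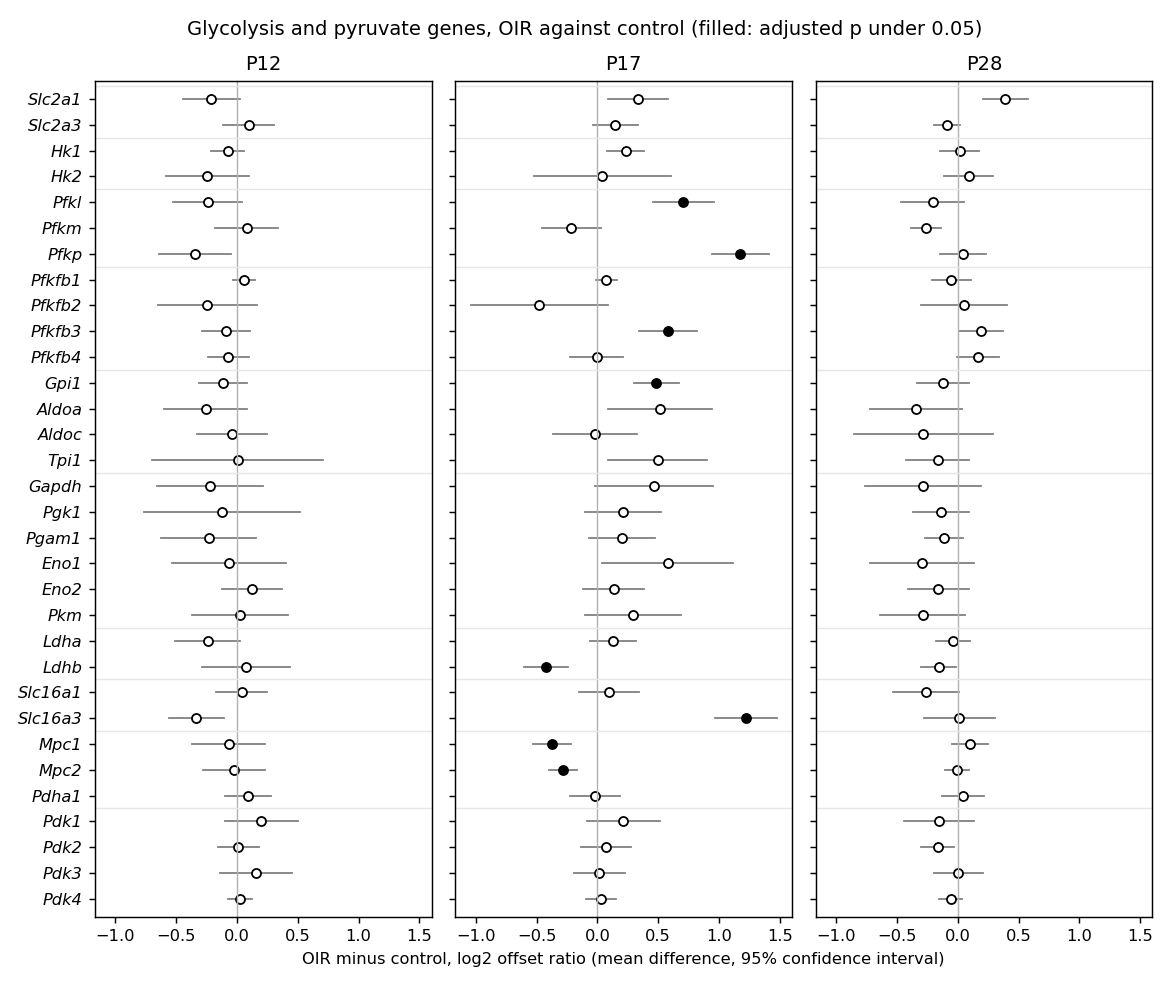
Difference of OIR minus control in the log2 offset ratio of the 32 genes on P12, P17 and P28, with the 95% confidence interval; genes are grouped by role, and filled points have an adjusted *p* below 0.05. Filled points appear on P17 only, 5 to the right of 0 and 3 to the left, with *Slc16a3* at 1.22 and *Pfkp* at 1.18.

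Sequences in front of the RefSeq start are shown for 4 of the called genes with a single start in the table, since these genes were called on the same day and many genes of the pathway are known targets of hypoxia-inducible factors. *Slc16a3* and *Pfkp* had the largest rises, *Gpi1* a smaller one, and *Ldhb* the largest fall. The stretches are the 250 bases before the start in build GRCm38.p6, at chr11:120948817-120949066 (plus strand) for *Slc16a3*, chr13:6648772-6649021 (minus strand) for *Pfkp*, chr7:34230337-34230586 (minus strand) for *Gpi1* and chr6:142507958-142508207 (minus strand) for *Ldhb*. They are written 5′ to 3′ along the gene. Capitals mark ACGTG and GCGTG, the core letters bound by hypoxia-inducible factors, and their reverse complements CACGT and CACGC.
Slc16a3: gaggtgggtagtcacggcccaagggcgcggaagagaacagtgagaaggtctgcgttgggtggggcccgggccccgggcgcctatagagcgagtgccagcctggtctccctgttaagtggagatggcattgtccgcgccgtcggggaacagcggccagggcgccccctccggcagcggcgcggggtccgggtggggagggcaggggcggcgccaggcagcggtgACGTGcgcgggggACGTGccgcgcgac
Pfkp: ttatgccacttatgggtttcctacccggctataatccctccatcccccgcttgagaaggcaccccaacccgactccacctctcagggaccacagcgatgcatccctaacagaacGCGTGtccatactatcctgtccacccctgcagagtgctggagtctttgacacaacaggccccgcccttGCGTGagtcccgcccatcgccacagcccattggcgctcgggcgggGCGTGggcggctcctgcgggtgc
Gpi1: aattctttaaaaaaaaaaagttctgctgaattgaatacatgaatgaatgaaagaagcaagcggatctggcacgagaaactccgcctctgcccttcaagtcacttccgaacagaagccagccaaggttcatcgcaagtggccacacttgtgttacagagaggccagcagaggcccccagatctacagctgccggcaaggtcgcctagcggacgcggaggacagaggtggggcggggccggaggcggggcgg
Ldhb: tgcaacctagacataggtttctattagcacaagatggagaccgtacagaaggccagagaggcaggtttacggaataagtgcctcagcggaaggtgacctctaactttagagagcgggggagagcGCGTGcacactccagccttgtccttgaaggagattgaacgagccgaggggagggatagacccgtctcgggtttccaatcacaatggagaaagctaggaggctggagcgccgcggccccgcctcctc
*Slc16a3* held 2 copies of ACGTG. *Pfkp* held 3 copies of GCGTG, *Ldhb* held 1 and *Gpi1* neither motif. *Pfkl* and *Mpc2*, also called and with a single start, are not shown. Each held 1 copy of GCGTG on either strand and none of ACGTG. Of the 32 genes, 31 were in the table, all but *Slc2a3*. ACGTG on either strand was found before any start of 14 of these 31 genes, and in 18.5% of the 27025 genes of the table. It stood before 2 of the 5 genes overexpressed on P17, before 0 of the 3 underexpressed genes and before 12 of the 23 others. ACGTG or GCGTG stood before 4 of the 5 overexpressed genes, 3 of the 3 underexpressed genes and 21 of the 23 others. Counted over starts, 35.3% of the 51 starts of the pathway genes and 16.6% of all 32851 starts held ACGTG within 250 bases, and 74.5% against 38.6% held ACGTG or GCGTG. A copy inside CACGTG was counted on both strands, and a match describes the letters only.

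Phosphofructokinase carries out the committed step of glycolysis, and its subunits come from 3 genes. *Pfkp*, the platelet-type subunit, ranged in the control mice of P17 from 0.10 to 0.81 with a median of 0.54, and in the OIR mice from 1.06 to 2.29 with a median of 1.71. Every OIR mouse lay above every control mouse. *Pfkp* was the only one of the 32 genes on P17 whose groups did not overlap, a separation found for 0.293% of all genes. The difference was 1.18 ± 0.11 (SE, adjusted *p* = 3.71e-07), and it ranged from 0.73 with the mean over both of its probes to 1.42 with a normexp offset of 0, called under all 13 alternatives. A second, dimmer *Pfkp* probe was also called, but with a smaller difference of 0.29 (adjusted *p* = 0.0438).

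*Pfkl*, the liver-type subunit, ranged from −0.59 to 0.52 with a median of −0.10 in the control mice and from 0.06 to 1.05 with a median of 0.60 in the OIR mice of P17. The groups overlapped, but 10 of 13 OIR mice were above the highest control. Its difference was 0.70 ± 0.12 (adjusted *p* = 0.00155). *Pfkm*, the muscle-type subunit, did not follow the other subunits on P17, with a difference of −0.21 ± 0.12 that was not called (adjusted *p* = 0.542).

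*Pfkfb3* encodes an enzyme that makes the sugar phosphate activator of phosphofructokinase. On P17 it ranged from 0.09 to 0.91 with a median of 0.35 in the control mice and from 0.60 to 1.73 with a median of 1.02 in the OIR mice. All 13 OIR mice were above the control median and 8 of them above the highest control. The difference was 0.58 ± 0.12 (adjusted *p* = 0.00667), and it ranged from 0.33 with the mean over its probes to 0.98 with a normexp offset of 0, again called each time. The other probe of *Pfkfb3*, which was dim, gave 0.08 and was not called. The related genes *Pfkfb1* and *Pfkfb4* had differences of 0.07 and −0.01, and *Pfkfb2* had −0.48 ± 0.27 (adjusted *p* = 0.562), with a wide spread between mice.

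*Gpi1*, the isomerase between the hexokinase and phosphofructokinase steps, ranged on P17 from 0.08 to 0.65 with a median of 0.42 in the control mice and from 0.41 to 1.25 with a median of 0.99 in the OIR mice. The OIR mice were mostly higher, 10 of 13 above the highest control. The difference was 0.48 ± 0.09 (adjusted *p* = 0.00341), and all 3 of its probes were called, with differences of 0.47 to 0.51. In the ratio deposited by the authors, *Gpi1* was not called (0.33, adjusted *p* = 0.254), nor was it in the retina channel alone (0.21, adjusted *p* = 0.562).

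*Slc16a3* encodes MCT4, a transporter that exports lactate from cells with high glycolytic flux. On P17 it ranged from −0.15 to 0.85 with a median of 0.33 in the control mice and from 0.68 to 2.14 with a median of 1.53 in the OIR mice. Of the 13 OIR mice, 12 were above the highest control. The difference was 1.22 ± 0.12 (adjusted *p* = 7.21e-07), and the second probe gave 1.17 (adjusted *p* = 2.08e-07). For *Slc16a1*, the gene of the widely expressed transporter MCT1, the difference on P17 was 0.10 ± 0.12 (adjusted *p* = 0.793).

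*Ldhb*, the lactate dehydrogenase subunit known to favor the conversion of lactate to pyruvate, moved in the other direction. On P17 it ranged from 1.18 to 1.91 with a median of 1.57 in the control mice and from 0.73 to 1.61 with a median of 1.11 in the OIR mice. Of the 13 OIR mice, 8 were below the lowest control. The difference was −0.42 ± 0.09 (adjusted *p* = 0.011). With slide as a block *Ldhb* was no longer called (−0.41, adjusted *p* = 0.0738), nor was it in the deposited ratio (−0.43, adjusted *p* = 0.085). For *Ldha*, the partner subunit that favors lactate, the brightest probe gave 0.13 ± 0.09 (adjusted *p* = 0.642), and its dimmest probe 0.66 ± 0.17 (adjusted *p* = 0.0613). The third probe of *Ldha* gave −0.17, so that its probes disagreed in sign.

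*Mpc1* and *Mpc2* form the carrier that brings pyruvate into mitochondria. *Mpc1* ranged on P17 from −0.18 to 0.57 with a median of 0.07 in the control mice and from −0.56 to 0.07 with a median of −0.26 in the OIR mice, none of which was above the control median. The difference was −0.37 ± 0.08 (adjusted *p* = 0.0103), and the second probe gave −0.45 (adjusted *p* = 0.0235). *Mpc2* ranged from 0.13 to 0.57 with a median of 0.34 in the control mice and from −0.20 to 0.36 with a median of 0.03 in the OIR mice. For each carrier subunit, 9 of 13 OIR mice were below the lowest control. The difference of *Mpc2* was −0.28 ± 0.05 (adjusted *p* = 0.00523). When all 6 groups shared one model, neither *Mpc1* (adjusted *p* = 0.0528) nor *Mpc2* (adjusted *p* = 0.0797) was called. *Mpc1* was also lost with slide as a block (adjusted *p* = 0.0707), and *Mpc2* with a normexp offset of 0 (adjusted *p* = 0.1). *Pdha1*, the catalytic subunit of pyruvate dehydrogenase, gave −0.02 ± 0.10.

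**Figure D2:**
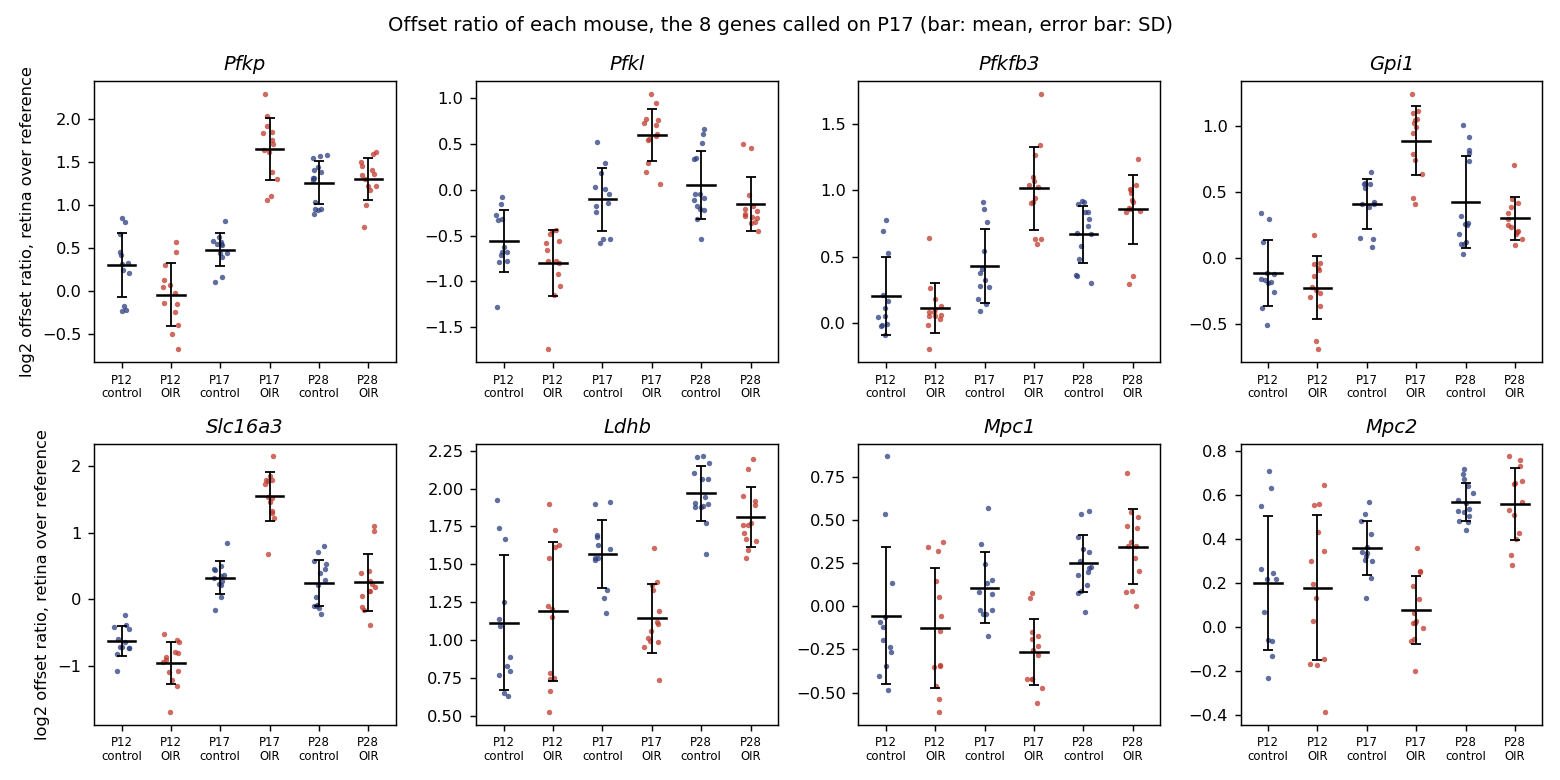
Log2 offset ratio (retina over reference) of each mouse in the 6 groups for the 8 genes called on P17; points are mice, horizontal bars group means and error bars SD. On P17 *Pfkp* separates all 13 OIR from all 12 control mice, while on P12 and P28 the groups of every gene shown overlap.

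Among the glucose transporters and hexokinases, no gene was called on P17. *Slc2a1*, the GLUT1 gene of the blood-retina barrier and glia, had a median of 0.02 in the control and 0.42 in the OIR mice. All 13 OIR mice were above the control median, but only 1 was above the highest control, and the difference of 0.33 ± 0.12 was not called (adjusted *p* = 0.269). With slide as a block *Slc2a1* was called, as it was with array weights. *Slc2a3*, the neuronal transporter gene, gave 0.15 ± 0.09. *Hk1*, the main hexokinase of neural tissue, was higher in OIR than the control median in 12 of 13 mice, with a difference of 0.23 ± 0.07 (adjusted *p* = 0.171). *Hk2* gave 0.04 ± 0.27, and its control mice alone ranged from 0.16 to 2.65.

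**Figure D3:**
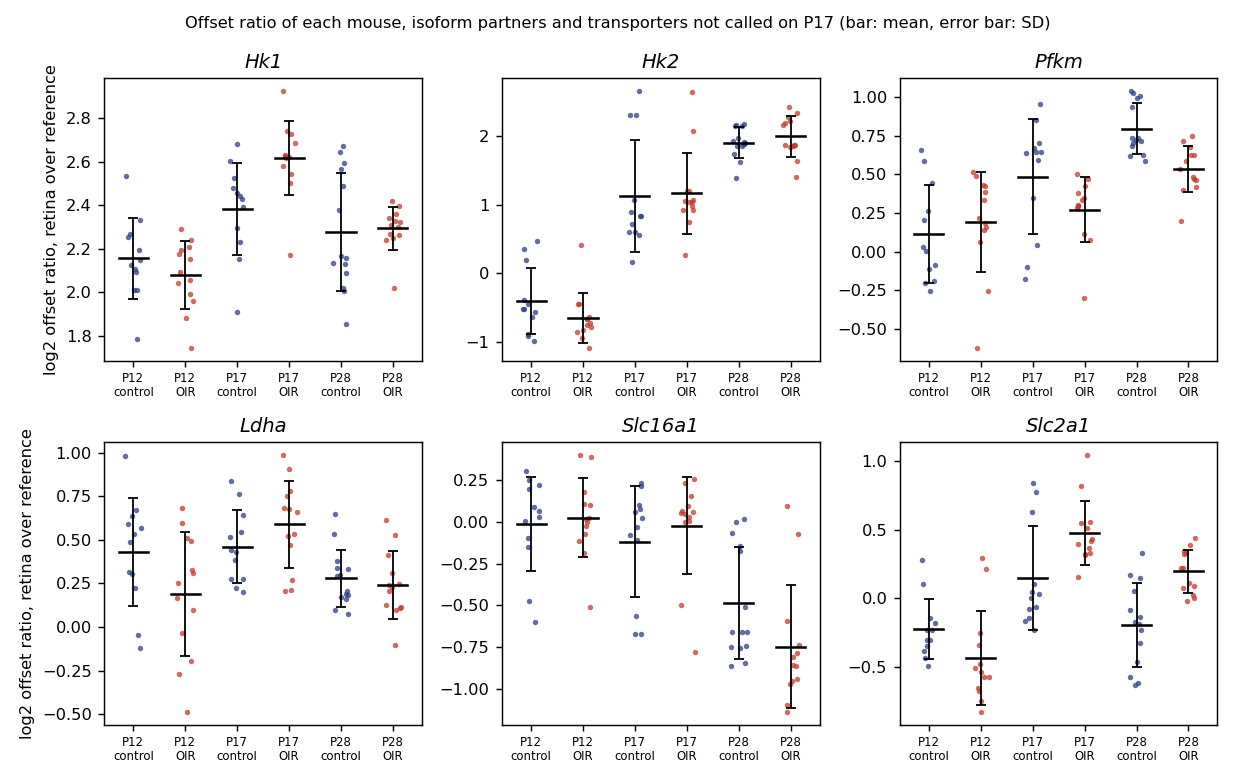
Log2 offset ratio (retina over reference) of each mouse in the 6 groups for *Hk1*, *Hk2*, *Pfkm*, *Ldha*, *Slc16a1* and *Slc2a1*, none of which was called on P17; points are mice, horizontal bars group means and error bars SD. The OIR and control mice overlap in every panel, and the group means of *Hk2* are higher on each later day in OIR and in control mice.

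The remaining enzymes of the pathway convert sugar phosphates to pyruvate. *Aldoa*, *Tpi1*, *Gapdh*, *Pgk1*, *Pgam1*, *Eno1*, *Eno2* and *Pkm* all had positive differences on P17, between 0.13 for *Eno2* and 0.58 for *Eno1*, and none was called. Their spread between mice was large. *Eno1* ranged from −0.92 to 1.22 in the control mice and from −0.09 to 2.06 in the OIR mice, with 9 of 13 OIR mice above the highest control and an adjusted *p* of 0.437. *Tpi1* gave 0.50 ± 0.20 (adjusted *p* = 0.338) and *Aldoa* 0.51 ± 0.21 (adjusted *p* = 0.349). *Aldoc*, the aldolase of brain and retina, gave −0.02 ± 0.17. The 4 pyruvate dehydrogenase kinase genes, whose products switch off pyruvate oxidation, had differences of 0.02 to 0.21 on P17 and none was called. The signal of *Pdk4* was well above background in 2 of the 13 OIR and 0 of the 12 control mice of P17. *Pdk1* gave 0.21 ± 0.15 (adjusted *p* = 0.635) in the offset ratio, but 0.59 in the deposited ratio, where it was called (adjusted *p* = 0.011).

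*Gapdh*, the dehydrogenase of the middle of the pathway, is often used to normalize other genes, and 7 probes measured it. On P17 all 7 gave higher means in OIR mice, by 0.09 to 0.53, and none was called. On P28 all 7 gave lower means, by 0.04 to 0.32, again without a call. Within the 3 slides that held both groups of P28, however, its brightest probe was higher in OIR each time, by 0.06 to 0.18. The probes of this gene differed among themselves within the same retinas. In the control mice of P12 their means ranged from −1.48 to 0.62, in those of P17 from −1.23 to 0.78 and in those of P28 from 0.11 to 0.32. The spread between the *Gapdh* probes of an array had a median SD of 0.85 in control and 0.65 in OIR mice on P12, of 0.74 and 0.86 on P17 and of 0.31 and 0.32 on P28, and the arrays of P28 also had more probes above background. The part of this difference between arrays in the comparisons of days was not tested.

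**Figure D4:**
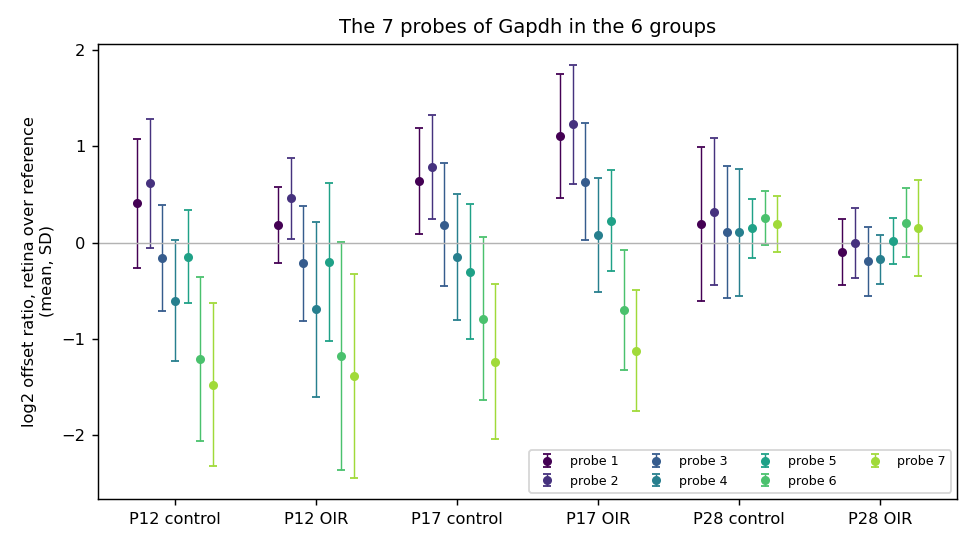
Mean and SD of the log2 offset ratio (retina over reference) of the 7 *Gapdh* probes in the 6 groups. The probe means of the control mice spread from −1.48 to 0.62 on P12 and from 0.11 to 0.32 on P28.

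Whether the differences were shared by the slides, each of which held several arrays, was examined on the 6 slides with both OIR and control mice of P17. Each of the 5 overexpressed genes was higher in OIR mice on 6 of 6 slides, with differences between 0.81 and 1.37 for *Pfkp* and between 0.74 and 1.59 for *Slc16a3*. The underexpressed genes were lower on 6 of 6 slides, although the smallest difference of *Ldhb* was −0.03. *Hk1*, *Aldoa*, *Tpi1*, *Gapdh*, *Eno1* and *Slc2a1*, which were not called, were also higher on 6 of 6 slides. The smallest differences were 0.02 for *Tpi1* and 0.06 for *Hk1*. The share of all genes with the same sign on 6 of 6 slides was not determined. The slides hold the same mice in which the genes were called, so their signs are a description and no separate support. In the reference channel alone, 1 probe of the array was called on P17, and none of the 32 genes was.

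**Figure D5:**
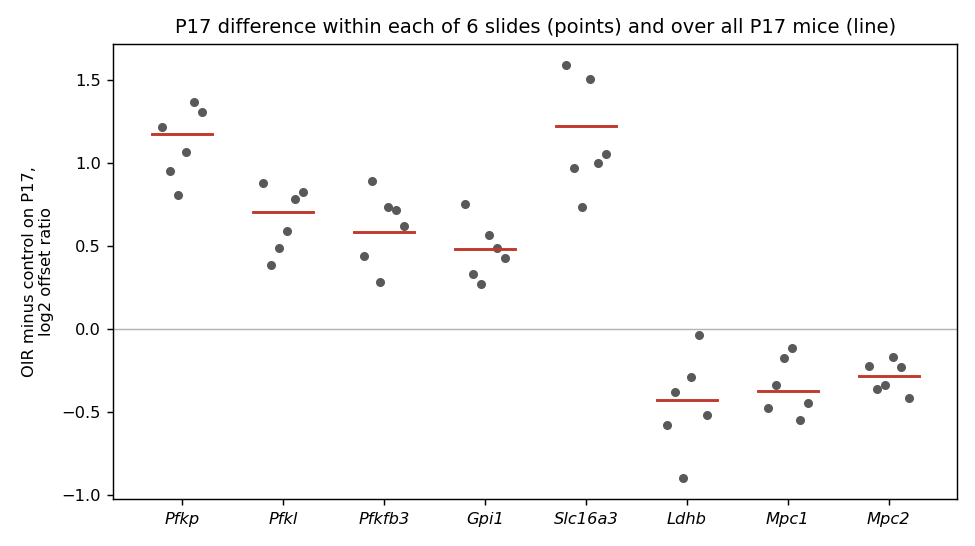
Difference of OIR minus control in the log2 offset ratio on P17 within each of 6 slides (points) and over all mice of P17 (lines) for the 8 called genes. The points of a gene lie on the same side of 0, with *Ldhb* the closest to it at −0.03.

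The change of the OIR effect between days was tested directly. From P12 to P17 the difference between OIR and control mice became more positive for 5 of the 32 genes, compared with 0.964% of all genes called in this direction. These were *Slc16a3* (1.55 ± 0.19, adjusted *p* = 5.45e-09), *Pfkp* (1.52 ± 0.17, adjusted *p* = 7.66e-10), *Pfkl* (0.95 ± 0.19, adjusted *p* = 0.00149), *Pfkfb3* (0.67 ± 0.15, adjusted *p* = 0.00573) and *Gpi1* (0.60 ± 0.14, adjusted *p* = 0.0168). None of the 3 genes underexpressed on P17 was called in this contrast. From P17 to P28 the difference became more negative for 4 genes, compared with 0.515% of all genes. These were *Slc16a3* (−1.21 ± 0.18, adjusted *p* = 1.35e-05), *Pfkp* (−1.13 ± 0.17, adjusted *p* = 9.51e-06), *Pfkl* (−0.91 ± 0.18, adjusted *p* = 0.00413) and *Gpi1* (−0.61 ± 0.14, adjusted *p* = 0.0208). The second probe of *Pfkp* was not called in either contrast (0.35, adjusted *p* = 0.0709, and −0.27, adjusted *p* = 0.224), nor was the dim second probe of *Pfkfb3* in the first (0.07). Both contrasts use the P17 mice and are not independent of each other or of the comparison on P17.

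On P28 the OIR and control mice of *Slc16a3* and *Pfkp* lay close together. *Slc16a3* had a median of 0.25 in the control and 0.18 in the OIR mice, with a difference of 0.01 and a 95% confidence interval from −0.28 to 0.31. *Pfkp* had a median of 1.32 in the control and 1.35 in the OIR mice, with a difference of 0.04 and an interval from −0.15 to 0.23. For both genes the interval leaves out the difference seen on P17. *Pfkfb3* was still higher in OIR, by 0.19 ± 0.09, without a call (adjusted *p* = 0.666). Its change from P17 to P28 was not called either (−0.39, adjusted *p* = 0.261). *Pfkl* gave −0.21 ± 0.13 (adjusted *p* = 0.696) and *Gpi1* −0.12 ± 0.10 (adjusted *p* = 0.732). The largest positive difference on P28 was that of *Slc2a1*, with medians of −0.18 in the control and 0.22 in the OIR mice, and it was not called (0.39 ± 0.09, adjusted *p* = 0.146). *Pfkm* was lower in OIR (−0.26 ± 0.06), also without a call (adjusted *p* = 0.124). Lens markers stood apart on this day, with summed log2 signals of 8.77 to 17.2 in control and 8.83 to 16.5 in OIR mice, compared with 8.75 to 11.4 over both groups of P17, and their part in the values of P28 was not tested.

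In the control retina, several of the same genes changed between days. From P12 to P17, 6 of the 32 genes rose and none fell, compared with 1.18% of all genes that rose and 1.14% that fell. *Hk2*, whose product binds mitochondria and is known from photoreceptors, rose by 1.53 ± 0.20 (adjusted *p* = 9.98e-08), from a median of −0.52 to 0.83. *Slc16a3* rose by 0.95 ± 0.13 (adjusted *p* = 7.07e-07), and *Aldoc* (0.88), *Pgam1* (0.62), *Gpi1* (0.52) and *Ldhb* (0.45) rose less. *Pgam1* lost this call under 3 of 13 alternatives and *Ldhb* under 2. *Slc16a3* and *Gpi1* were thus higher on P17 than on P12 in control mice and higher still in OIR mice of P17, whereas *Ldhb* was lower in OIR than in control mice of P17.

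From P17 to P28, 10 genes rose and 3 fell in the control retina, compared with 11.7% and 7.37% of all genes, so that the share that fell was near that of all genes. The control arrays had a median of 20847 probes above background on P17 and of 32169.5 on P28. A change with age cannot be told apart from this difference between arrays. *Pgk1* (0.78 ± 0.21, adjusted *p* = 0.00638), *Pfkp* (0.78 ± 0.12, adjusted *p* = 2.3e-06), *Hk2* (0.78 ± 0.19, adjusted *p* = 0.00302) and *Tpi1* (0.72 ± 0.24, adjusted *p* = 0.0324) had the largest rises. The second probe of *Pfkp* gave −0.13 and was not called (adjusted *p* = 0.196), so that the probes of this gene disagreed in sign. *Pdha1* (0.50) and *Pdk3* (0.50), which promote and restrain pyruvate oxidation, both rose, as did *Ldhb* (0.40), *Pgam1* (0.40), *Slc2a3* (0.36) and *Pfkm* (0.31). Some of these rises were lost under alternatives, that of *Pfkm* under 7 of 13 (0.16 to 0.47), *Ldhb* under 6 (0.24 to 0.40), *Slc2a3* under 4 (0.13 to 0.36), *Pdk3* under 3, *Pgam1* under 2 and *Hk2* under 1. *Slc16a1* (−0.37), *Slc2a1* (−0.34) and *Pfkfb1* (−0.22) fell. *Slc2a1* lost its call under 4 of 13 alternatives. Of the other falls, *Slc16a1* turned to 0.000773 with the share of probes above background as a covariate. *Pfkfb1* turned to 0.01 in the deposited ratio and was well above background in 6 of 12 control mice on P17 and 10 of 14 on P28.

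Of 38 other genes of the pathway and its shuttles, 37 were measured. On P17, 1 was overexpressed and 3 were underexpressed in OIR, compared with 1.65% and 0.652% of all genes. *Mdh1* (−0.46 ± 0.08, adjusted *p* = 0.0025) and *Got1* (−0.59 ± 0.15, adjusted *p* = 0.0475) encode the cytosolic enzymes of the malate-aspartate shuttle, which carries reducing equivalents of glycolysis into mitochondria. *Gpd1* (0.18 ± 0.04, adjusted *p* = 0.0276) belongs to the glycerol phosphate shuttle and was higher, while *Emb* (−0.45 ± 0.11, adjusted *p* = 0.0346), a chaperone of monocarboxylate transporters, was lower. *Mdh2* and *Got2*, the mitochondrial partners, were not called. The median of the 37 genes was −0.03.

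Of 16 genes of the pentose phosphate pathway and of glycogen, *Gys1*, the glycogen synthase of muscle and most tissues, was overexpressed (0.74 ± 0.15, adjusted *p* = 0.00744), and *Tkt*, the transketolase gene, was underexpressed (−0.42 ± 0.07, adjusted *p* = 0.00118) on P17. Among all genes, 1.65% were higher and 0.652% lower in OIR on P17. None of these 16 and none of the 37 genes was called on P12 or P28, where 0.0567% and 0.142% of all genes were. The OIR effect on *Gys1* also fell from P17 to P28, by 0.83 (adjusted *p* = 0.0119). Its change from P12 to P17 was not called, nor was that of any other of the 16 genes. In that contrast 0.964% of all genes were called as more positive.

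Of 22 genes of the hypoxia response outside glycolysis, 7 were overexpressed and none was underexpressed on P17, compared with 1.65% and 0.652% of all genes. *Ndufa4l2*, which lowers respiratory chain activity in hypoxia, gave 2.03 ± 0.10 (adjusted *p* = 1.85e-12), *Adm* 1.31, *Vegfa* 0.97, *Bnip3* 0.84, *P4ha2* 0.54, *Higd1a* 0.54 and *Bhlhe40* 0.41. On P12 none of them was called. On P28 only *Ndufa4l2* was, with 0.79 ± 0.07 (adjusted *p* = 8.29e-08), on a day when no gene of the 32 and 0.142% of all genes were.

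Marker genes of cell types of the retina, of red blood cells and of the lens moved on P17 as well, a day when 1.65% of all genes were higher and 0.652% lower in OIR. In OIR, 2 of 4 astrocyte, 3 of 8 microglia and macrophage, 1 of 9 endothelial, 2 of 6 mural and 2 of 6 red blood cell markers were overexpressed, and 1 of 7 amacrine, 1 of 8 ganglion cell, 1 of 7 pigment epithelium and 1 of 7 lens markers were underexpressed. None of the rod, cone, bipolar, horizontal or Mueller glia markers was called, although the median difference was −0.42 for bipolar and −0.34 for Mueller glia markers. The summed log2 signal of the endothelial markers in the retina channel ranged from 10.8 to 11.9 in control and from 11.5 to 12.3 in OIR mice of P17, and that of the red blood cell markers from 11.3 to 11.9 and from 11.9 to 14.5. For the astrocyte markers it ranged from 9.31 to 9.661 in control and from 9.6624 to 10.37 in OIR mice. For the microglia and macrophage markers it ranged from 9.82 to 10.08 and from 10.13 to 10.84. In both of these lists every OIR mouse lay above every control mouse of P17. For the astrocyte markers the margin was narrow, between 9.661 and 9.6624. Of the 4 astrocyte markers, 2 differences were positive and 2 negative, so their sum does not stand for each of them. Of the 8 microglia and macrophage markers, 7 differences were positive and 1 was negative. How often the sums of genes chosen at random would separate in this way was not determined. The summed signal of the 9 rod markers ranged from 16.5 to 17.7 and from 16.3 to 17.3. That of the Mueller glia markers ranged from 14.7 to 15.0 and from 14.2 to 14.8. Their part in the differences of the glycolytic genes was not tested, and in whole retinas a change in the number of cells of a type cannot be told apart from a change of RNA per cell.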

How the data were processed

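Retina RNA of 77 mice was measured on 2-color arrays with 62976 spots. As deposited, the scanner files hold median signal and background intensities without normalization and processed intensities from Feature Extraction (10.7.3.1), and the deposited table holds log2 ratios. These log2 ratios equaled the ratio of processed Cy3 to Cy5 within 0.001 for at least 99.7% of the probes of each array. GeneSpring settings of the authors are not given in the sources used here, and the file headers name an mm9 array design.

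Median signals were corrected with normexp (offset 50), normalized by loess within arrays, and averaged per probe in limma 3.58.1 (R 4.3.3, data.table package, version 1.17.8). Control spots and outlier spots (0.592 to 0.951% per array) were left out. An offset shrinks the ratios of dim probes. OIR and control mice were compared per day with the moderated statistic (2-sided) and Benjamini-Hochberg adjustment over 55681 probes, and changes between days in one model of 6 groups. Every mouse counted as a replicate. Litters were treated whole and the litter of a mouse is not given in the sources used here, so the standard errors and *p*-values ignore litter. A gene was named with full statistics where called, and otherwise where it completed a role or another probe or setting called it. The members and all lists were chosen with earlier results of these data known. Sequences came from RefSeq (GRCm38.p6). Each alternative changed one choice (the background subtraction, the offset, the deposited ratio, slide as a block, the scope of the model, array weights, a filter on dim probes, the mean of all probes, the retina channel alone, robust estimation, or sex as a covariate). The sex of each mouse was inferred from the values of *Xist* and of genes of the Y chromosome. The deposited ratio with slide as a block and the share of probes above background as a covariate were added after seeing the data. The number of arrays and their signal over background limit the precision. Simulated data were used to test the procedure. Their noise was independent between arrays, without slides or litters, so they cannot show how slides or litters affect the *p*-values.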

Additional observations from a re-analysis of the deposited data

Results flagged for a closer look

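The difference between OIR and control mice changed between days for 5 genes, by a contrast in the model of 6 groups (limma). From P12 to P17 it changed by 1.5537 for *Slc16a3*, by 1.521 for *Pfkp*, by 0.946 for *Pfkl*, by 0.6749 for *Pfkfb3* and by 0.5978 for *Gpi1*. From P17 to P28 it changed by −1.2087 for *Slc16a3*, by −1.1332 for *Pfkp*, by −0.9108 for *Pfkl* and by −0.6057 for *Gpi1*. *Gpi1* lost both calls in the deposited ratio, with 0.48 (adjusted *p* = 0.127) and −0.46 (adjusted *p* = 0.189), and in the retina channel alone, and its change from P17 to P28 was lost under 5 of 13 alternatives. The other changes named here, each of the brightest probe or of the mean over probes, stayed called under all 13 alternatives. The second *Pfkp* probe was not called for either change (0.35, adjusted *p* = 0.0709, and −0.27, adjusted *p* = 0.224), nor was the second *Pfkfb3* probe from P12 to P17 (0.07).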

How the results depend on the processing

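Under 13 alternatives, the count of called genes on P12 was 0 each time. On P17 the 8 calls became 5 when all 6 groups shared one model, where *Ldhb* (adjusted *p* = 0.0653), *Mpc1* (0.0528) and *Mpc2* (0.0797) were lost, and were 6 to 10 otherwise. *Pfkp*, *Slc16a3*, *Pfkl* and *Pfkfb3* were called in all 13, *Mpc1* and *Mpc2* in 11, *Gpi1* in 10 and *Ldhb* in 8. On P28 the count rose from 0 to 1 with array weights, with the share of probes above background as a covariate (*Pfkm* in both) and in the retina channel alone (*Slc2a1*). The 5 changes of the OIR effect from P12 to P17 became 10 with array weights and 8 with that covariate. The 6 control changes from P12 to P17 became 11 in the deposited ratio, 15 with slide as a block, 14 with both, 15 with array weights, 12 with the background filter, 10 in the retina channel alone and 16 with the covariate. The 13 control changes from P17 to P28 became 8 with an offset of 0 and 21 with array weights. *Pfkfb1* turned from −0.22 to 0.0117 in the deposited ratio and 0.05345 in the retina channel alone, and *Slc16a1* from −0.37 to 0.000773 with the covariate. The cause of these changes was not tested. No paired analysis was possible because every mouse has its own number. Dim probes, among them those of *Pdk1*, *Pdk4* and *Pfkfb1*, were above background on some arrays only, which limits what their ratios can show.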
